A study of Homo sapiens with 25 samples.

Results

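The comparison described here is 5-Ph-IAA treatment, meant to degrade TRRAP, while the checkpoint kinase CHK1 was inhibited. It set 3 RNA libraries from cells given both 5-Ph-IAA and prexasertib against 3 libraries from cells given prexasertib without 5-Ph-IAA, which are 6 of the 12 RNA libraries and of the 25 samples of the series. Libraries were chosen by their labels alone, and 14658 of the 28395 genes in the count table had enough counts to be tested. All cells were A549, an established human lung carcinoma line, carrying the mAID degron on TRRAP. Every group, controls included, was held in 2 mM thymidine for 20 h, which stops cells at the start of DNA replication, and then released for 4 h. The group given both drugs received 1 µM 5-Ph-IAA for 6 h and prexasertib for 3 h. The prexasertib group received the CHK1 inhibitor for 3 h, the 5-Ph-IAA group received only the degrader for 6 h, and the DMSO group received neither compound. The labels of the RNA libraries state the genotype as WT although the growth protocol describes the degron cells, so that label does not describe the tag, and no dose of prexasertib is used because its unit differs between labels. Whether the 3 libraries of a group are separate cultures is not labelled, so p-values measure only the spread between these libraries, which may be technical.

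TRRAP is a large scaffold protein of the PIKK family without kinase activity, and it links activators to the SAGA and TIP60 histone acetyltransferase complexes. MMB is the assembly of the MuvB core with the activator B-MYB, and it switches on the genes of late cell cycle phases, whose promoters often hold a CHR element and CCAAT boxes. CHK1 restrains cell cycle kinases when replication is disturbed, and an inhibitor such as prexasertib lets cells run toward mitosis early. 5-Ph-IAA is an auxin analogue that directs proteins with the mAID tag to the proteasome.

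The degron removes protein, so the TRRAP transcript does not test the labels. TRRAP (gene ID 8295, chr7:98878532-99013241 in GRCh38.p14) was measured at 76.5, 84.2 and 63.6 CPM (read counts scaled to a common library size by TMM) in the 3 prexasertib libraries and at 115.5, 99.7 and 141 CPM in the 3 libraries with both drugs. The groups did not overlap, and TRRAP RNA rose by 0.67 ± 0.18 (SE) on the log2 scale (edgeR's quasi-likelihood test, adjusted p = 0.03). That call was lost in 8 of the alternative fits, among them the fits without replicate 1 and without replicate 3 of either group compared. Replicate numbers 1 to 3 were taken to pair the libraries and were a term of the model.

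The tissue of origin was checked on its markers, with CPM scaled by library size alone in this paragraph, without TMM. The keratin transcripts KRT7, KRT8 and KRT18 had mean levels between 2114 and 3251 CPM over the 12 libraries, and the epithelial cadherin CDH1 had 98.8 CPM. Of the 16 epithelial markers listed, 9 had a mean under 10 CPM, among them EPCAM at 0.807, CLDN7 at 0.908, ESRP1 at 1.06, MUC1 at 4.12, KRT19 at 4.24 and GRHL2 at 0.12 CPM. The summed level of 16 markers of blood, connective tissue, vessel and nerve cells lay between 118 and 127.6 CPM with prexasertib and between 109.7 and 132 CPM with both drugs, and 1 of them was at 0 in all 12 libraries. SNAP25 (48.4 CPM), COL1A1 (31.8 CPM) and CD68 (30.6 CPM) made up most of that sum, as means over the 12 libraries.

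5-Ph-IAA under prexasertib moved the RNA of mitotic, replication, ribosome assembly, splicing and chaperone genes down. Genes that rose had a lower median level than genes that fell. At an adjusted p under 0.05, 2528 genes rose (17.2%) and 2913 fell (19.9%), 5441 in all. The changes were mostly small: the median was 0.47 on the log2 scale among genes that rose and -0.36 among genes that fell, and 424 genes rose and 121 fell by more than 1 log2 unit. The 3 libraries of one group lay wholly apart from those of the other for 4094 of the called genes, or 75.2%. Over all tested genes, called or not, 5159 lay apart in this way, or 35.2%. In bulk RNA, fewer cells at a given stage of the cycle and less RNA per cell cannot be told apart.

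The direction of many small changes depended on how the libraries were scaled. TMM factors lay between 0.925 and 0.951 with prexasertib and between 1.016 and 1.043 with both drugs, and more genes had at least 1 count with both drugs (17967 to 18424) than with prexasertib (17135 to 17712). Under scaling by library size alone, the median log2 fold change of all tested genes shifted up by 0.14, 4814 genes rose (32.8%) and 1591 fell (10.9%), so that 75.2% of calls were higher in place of 46.5%. Without the replicate term 1150 genes rose (7.85%) and 1524 fell (10.4%), and 2673 of these 2674 were calls of the same sign with it. Of the genes described below, the calls for GDF15, SMG1, MRPL28, ELF3, KDM6B, FOSB, EGR1, POLR3B, BRCA2, SRSF9, CDK1 and CYP1B1 were among those lost without it. SMG1, EGR1, CDK1 and CYP1B1 were not called with library size alone. Gene groups below are read against a median change over all tested genes of 0.015 with TMM and 0.155 with library size alone. Over all tested genes, 17.2% were called higher and 19.9% lower with TMM, which is the background for the counts of each list.

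Expression level went with direction. Among the 622 most abundant genes, those with a mean above 8 on the log2 CPM scale, 57.6% fell and 2.57% rose. Among the 925 genes at or below 0 on that scale, 13.8% rose and 1.19% fell, both under the 17.2% and 19.9% of all tested genes. The share that rose was highest, at 22.9%, between 2 and 3 log2 CPM. The median change ran from 0.50 in the weakest class to -0.17 in the strongest with TMM, and from 0.64 to -0.03 with library size alone, so that the order held under both. A weak gene could enter the test through the group in which it was high, which bears on the weakest class. The median level of the genes that rose was 4.21 log2 CPM, against 6.09 for those that fell. The gene lists below were not matched for level. With prexasertib, mean levels were 9.50 log2 CPM for cytosolic ribosomal proteins, 9.22 for NRF2 targets, 9.45 for heat-shock genes and 7.96 for splicing factors. Ribosomal proteins and NRF2 targets had medians of -0.08 and -0.09, against -0.17 for the strongest class. With library size alone these list medians were 0.06 and 0.05, and no direction is read from them. Heat-shock genes had -0.55, and splicing factors -0.45 against -0.12 for genes between 7 and 8.

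**Figure D1:**
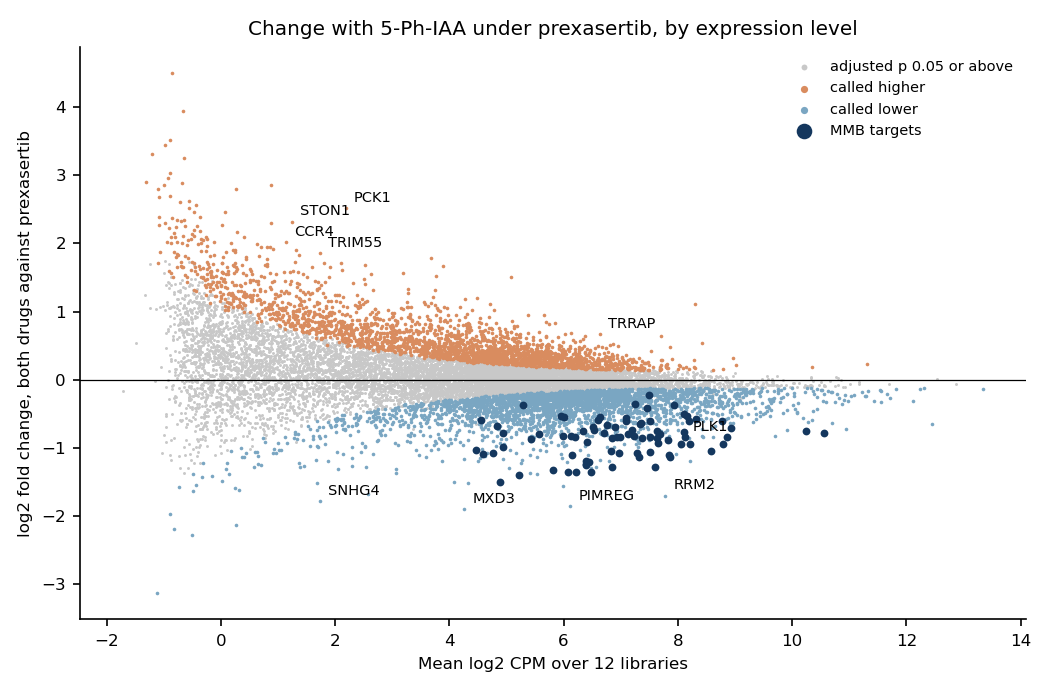
Each point is 1 tested gene, with its mean log2 CPM over the 12 libraries on the x axis and its log2 fold change between both drugs and prexasertib on the y axis. Orange points rose, blue points fell, grey points did not pass the adjusted p of 0.05, and the 81 dark points are the MMB targets, all of which lie below 0.

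**Figure D2:**
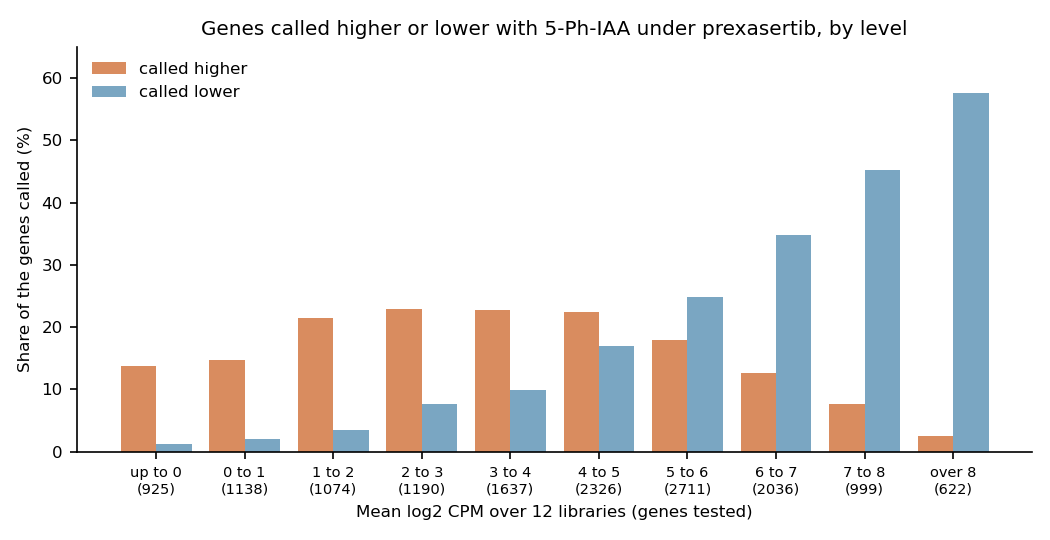
Bars give the percentage of genes called higher (orange) or lower (blue) in 10 classes of mean log2 CPM, with the number of genes tested in brackets. The share that fell climbs from 1.19% in the weakest class to 57.6% in the strongest, while the share that rose is 2.57% in the strongest.

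The MMB targets, which build the spindle, the kinetochore and the machinery that ends mitosis, fell as a body. All 81 listed genes were tested and all 81 fell, with a median of -0.84 and a range from -1.51 to -0.23. The median within each numbered pair of libraries was -0.83, -0.78 and -0.84. With library size as the only scaling 80 fell (median -0.70), and without the replicate term 77 did. The list was drawn up with earlier results of these data known, so its direction is a description.

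Promoters of 4 of these genes are shown because they have the smallest p-values in this comparison among MMB targets whose promoter holds a CHR element. The 4 sequences are the 250 bases before the transcription start on the plus strand of GRCh38.p14, from RefSeq, at chr5:138178862-138179111 for KIF20A, chr1:43358731-43358980 for CDC20, chr4:17810729-17810978 for NCAPG and chr17:59155496-59155745 for PRR11. Capitals mark a CHR element (TTTGAA or TTTAAA) or a CCAAT box (CCAAT), read on either strand, so that TTCAAA and ATTGG are the same words on the other strand.
KIF20A: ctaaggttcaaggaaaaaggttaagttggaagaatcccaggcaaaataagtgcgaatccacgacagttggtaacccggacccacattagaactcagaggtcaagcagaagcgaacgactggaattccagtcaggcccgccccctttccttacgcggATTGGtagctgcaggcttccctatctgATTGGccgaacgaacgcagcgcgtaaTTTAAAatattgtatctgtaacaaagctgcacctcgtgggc
CDC20: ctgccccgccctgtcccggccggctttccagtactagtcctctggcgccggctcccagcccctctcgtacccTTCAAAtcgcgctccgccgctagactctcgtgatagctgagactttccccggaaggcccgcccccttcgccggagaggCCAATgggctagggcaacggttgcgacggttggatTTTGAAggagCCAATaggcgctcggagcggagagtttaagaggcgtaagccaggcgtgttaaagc
NCAPG: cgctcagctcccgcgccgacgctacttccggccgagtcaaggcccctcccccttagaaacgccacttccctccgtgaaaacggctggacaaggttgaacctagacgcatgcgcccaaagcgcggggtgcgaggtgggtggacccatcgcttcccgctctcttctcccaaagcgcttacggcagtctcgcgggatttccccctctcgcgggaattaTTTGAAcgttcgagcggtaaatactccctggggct
PRR11: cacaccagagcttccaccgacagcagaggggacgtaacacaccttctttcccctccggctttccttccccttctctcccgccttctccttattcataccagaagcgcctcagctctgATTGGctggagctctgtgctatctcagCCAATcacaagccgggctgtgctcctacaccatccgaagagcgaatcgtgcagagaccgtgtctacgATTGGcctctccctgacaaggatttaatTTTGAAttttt
In KIF20A the CHR element begins 41 bases before the start, with CCAAT boxes at 94 and 67 bases. CDC20 has CHR elements at 178 and 65 bases and CCAAT boxes at 100 and 55 bases. The single CHR element of NCAPG begins 35 bases before the start, and no CCAAT box was found in this window. PRR11 has a CHR element at 11 bases and CCAAT boxes at 133, 106 and 39 bases.

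The same words were counted in the 300 bases around the start, 250 before and 50 after, of the 11547 tested genes that have an entry. A CHR element was present in 15.5% of all tested genes, in 18.6% of genes that fell and in 13.9% of genes that rose. Among the MMB targets with an entry, 56 of 70 had one (80%), 74.3% had a CCAAT box and 64.3% had both, against 36.3% and 6.17% of tested genes for a CCAAT box and for both. Across all 27305 promoters in the table the shares were 24.3% for a CHR element, 35.7% for a CCAAT box and 9.49% for both. The MMB targets with a CHR element had a median change of -0.85, and those without one had -0.82.

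KIF20A, a kinesin of the central spindle, was at 477, 474 and 506.5 CPM in the prexasertib libraries and at 201, 197 and 203 CPM with both drugs. The groups were far apart, and KIF20A fell by 1.28 ± 0.05 on the log2 scale (adjusted p = 7.5e-26, edgeR), although CDC23 overlaps its locus and shared reads are uncertain. CDC20, the activator of the anaphase-promoting complex, was at 449.8, 484 and 516 CPM with prexasertib and at 218, 208.5 and 232 CPM with both drugs. No library of one group reached the other, and CDC20 fell by 1.14 (adjusted p = 5.1e-23, edgeR). NCAPG, a condensin subunit, fell by 1.35 (158.6 to 62.2 CPM). PRR11, a gene of late cell cycle progression, fell by 1.11 (405 to 187.6 CPM).

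PLK1, the polo kinase that drives entry into mitosis, was at 456, 447.5 and 539.5 CPM with prexasertib and at 266, 257 and 276 CPM with both drugs. Cyclin B1 (CCNB1) was at 844.5, 846 and 876.5 CPM with prexasertib and at 491.5, 517 and 563 CPM with both drugs. Both genes were separated between the groups, and they fell by 0.85 and 0.71 on the log2 scale (adjusted p = 4.9e-19 and 1.4e-16, edgeR). The spindle assembly factor TPX2 went from 775 ± 28.7 to 401.5 ± 3.29 CPM (SD, n = 3), topoisomerase II alpha (TOP2A) from 2356 ± 255.8 to 1368 ± 72.1 CPM, and the proliferation marker MKI67 from 640.3 ± 67.3 to 307 ± 27 CPM. NUSAP1, a protein that bundles spindle microtubules, fell by 1.07 and KIF23, a motor of cytokinesis, by 0.89.

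**Figure D3:**
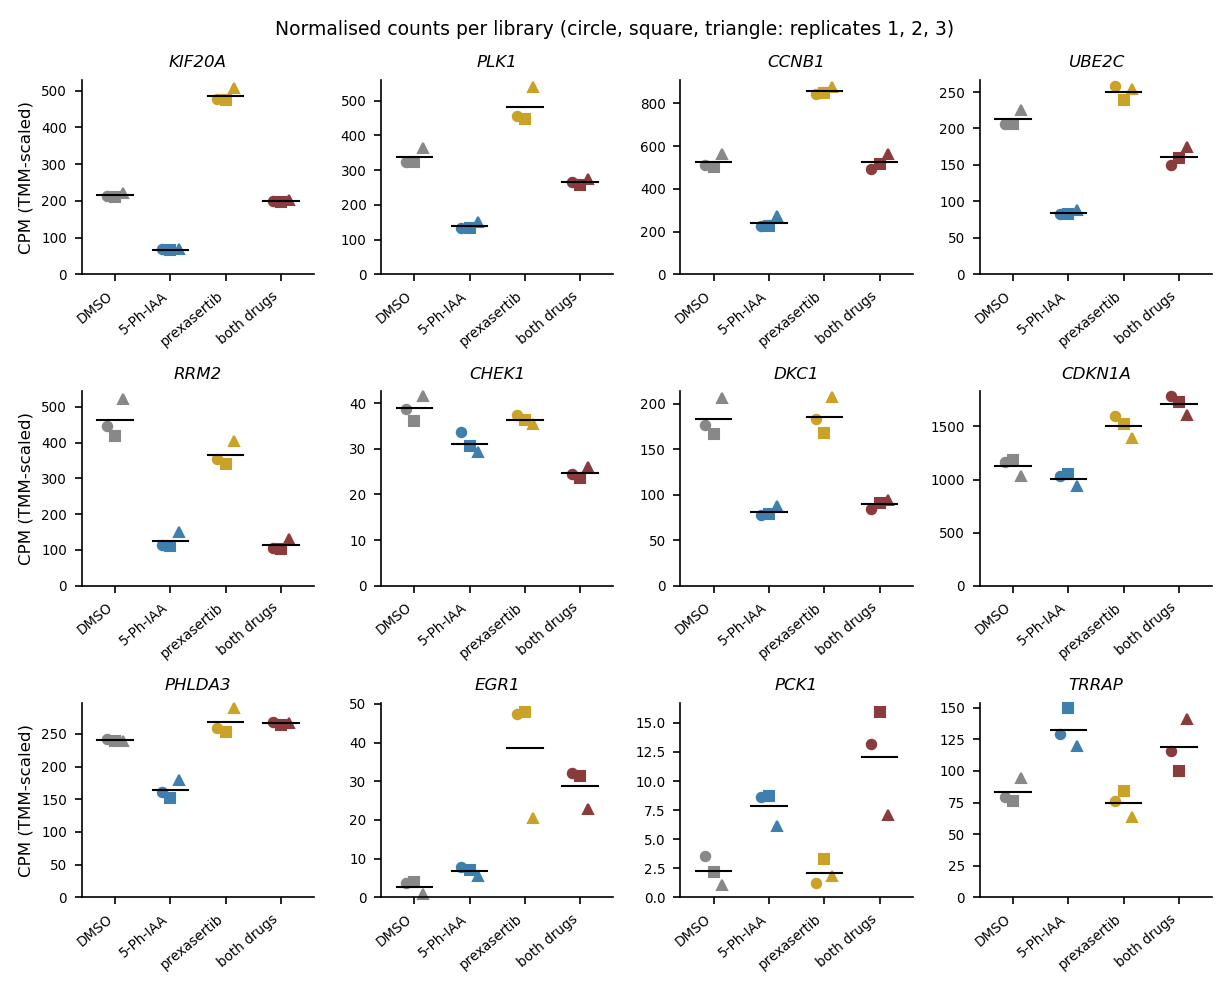
Each panel shows CPM (TMM-scaled, y axis from 0) for 1 gene in the 12 libraries, by group on the x axis, with circles, squares and triangles for replicates 1, 2 and 3 and a line at the group mean. KIF20A, PLK1, CCNB1, UBE2C, RRM2, CHEK1 and DKC1 are lower with both drugs than with prexasertib in every library, while PHLDA3 overlaps between these groups and PCK1 is higher with both drugs.

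Genes for the factors that read the MMB promoters had smaller median changes than the list of their targets. Of 17 genes for MuvB subunits, MYB proteins, pocket proteins and their E2F partners, 8 fell and none rose, with a median of -0.23. With library size alone 7 fell and 4 rose, and the median was -0.09. FOXM1, the forkhead factor that joins MMB late in the cycle, was at 256, 253 and 300.1 CPM with prexasertib and at 188, 178.5 and 212 CPM with both drugs. RHNO1 overlaps the FOXM1 locus, so its counts are uncertain. Its groups did not overlap and FOXM1 fell by 0.48 ± 0.052 (adjusted p = 1.3e-10, edgeR). RBBP4, the histone-binding subunit of MuvB, fell by 0.53, with SYNC overlapping its locus. B-MYB itself (MYBL2) fell by 0.35 (149 ± 28.2 to 117 ± 17.6 CPM, adjusted p = 2.5e-06, edgeR), its groups overlapped, and the call was lost without the replicate term. LIN9, a MuvB subunit, had 14.8 ± 0.964 and 12.7 ± 1.84 CPM and a change of -0.23 that did not pass the test (adjusted p = 0.15, edgeR), and LIN37, also of MuvB, had 0.11 (adjusted p = 0.49, edgeR).

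Genes of the CHK1 pathway and of the switch into mitosis fell in 17 of 20 cases and none rose, with a median of -0.54 (-0.40 with library size alone, where 15 fell and 2 rose). CHEK1, which encodes the kinase that prexasertib inhibits, was at 37.4, 36.3 and 35.5 CPM with prexasertib and at 24.4, 23.5 and 26 CPM with both drugs. The groups were apart and CHEK1 fell by 0.56 ± 0.09 (adjusted p = 1.7e-06, edgeR). Its targets, the phosphatases that activate cyclin-dependent kinases, fell too: CDC25B by 0.85 (663 to 369 CPM) and CDC25A by 0.80 (17.1 to 9.8 CPM). WEE1, the kinase that opposes them, fell by 0.87 (48.1 to 26.2 CPM). BORA, the cofactor by which Aurora A activates PLK1, fell by 1.19, and ATR, the kinase upstream of CHK1, by 0.44.

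E2F targets, which supply DNA replication, fell in 48 of 61 cases and 1 rose, with a median of -0.39 (35 fell and 4 rose with library size alone, median -0.25). RRM2, the regulated subunit of ribonucleotide reductase, was at 355, 340 and 405 CPM with prexasertib and at 104.5, 103 and 131.5 CPM with both drugs. The lowest prexasertib value was over the highest value with both drugs, and RRM2 fell by 1.70 ± 0.054 (adjusted p = 1.5e-29, edgeR). The repressor E2F8 went from 7.86 ± 0.216 to 2.43 ± 0.112 CPM, a fall of 1.68, and CDCA7, a replication-associated chromatin factor, fell by 1.29. BRCA2 was the 1 member that rose, by 0.32 (adjusted p = 0.039, edgeR), a call lost without the replicate term and in the fits without replicate 1 or replicate 3 of either group compared. E2F sites (TTTGGCGC or TTTCCCGC, either strand) were in the 300-base window of 39.6% of the 53 listed genes with an entry, against 3.61% of tested genes and 2.31% of all promoters in the table.

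DNA repair genes were mixed, with 15 of 34 lower and 2 higher and a median of -0.13 that was 0.01 with library size alone (8 lower, 6 higher). FANCA of the Fanconi anaemia pathway, which overlaps ZNF276, fell by 0.56. LIG4, the ligase of non-homologous end joining, rose by 0.63. Replication-dependent histone genes, whose RNA has no poly(A) tail, were mostly too low to test: 17 of 63 passed the filter, and 1 fell.

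Ribosome assembly genes fell broadly. In the list of MYC-regulated and nucleolar growth genes 47 of 53 fell and none rose, with a median of -0.52 (42 fell with library size alone, median -0.38). DKC1, the pseudouridine synthase of the nucleolus, was at 183, 167.5 and 207 CPM with prexasertib and at 84.4, 91.3 and 94.2 CPM with both drugs. The groups did not overlap and DKC1 fell by 1.05 ± 0.058 (adjusted p = 5e-20, edgeR). The nucleolar helicase DDX21 fell by 0.97 (391 to 199 CPM), the nucleolar GTPase GNL3, which overlaps GLT8D1, by 1.15, the box C/D protein NOP56 by 0.66 and nucleolin (NCL) by 0.43. An E-box (CACGTG) was in the promoter window of 42.2% of the 45 listed genes with an entry, against 9.9% of tested genes and 7.43% of all promoters. MYC itself did not pass the test (83.5 ± 7.15 and 74.1 ± 2.91 CPM, change -0.17, adjusted p = 0.09, edgeR), although 4 of the alternative fits called it, 2 of them without prexasertib replicate 3.

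Transcription of ribosomal RNA and transfer RNA also had members that fell, with 14 of 34 genes for the RNA polymerase I and III machinery lower and 4 higher (8 and 10 with library size alone). The polymerase III subunit POLR3B rose by 0.39, a call lost in the fits without prexasertib replicate 1 or 2 or without both drugs replicate 3. UBTF, the factor that marks ribosomal DNA, fell by 0.70 (136 to 83.9 CPM) and the polymerase I subunit POLR1G by 0.90, though POLR1G overlaps ERCC1. Ribosomal protein genes moved little: 11 of 73 fell and none rose, with a median of -0.08 that was 0.06 with library size alone, where none fell and 7 rose. Mitochondrial ribosomal protein genes had 20 lower and 6 higher of 70, but 8 lower and 28 higher with library size alone. MRPL18 and MRPS18B fell by 0.64 and 0.72, and MRPL28 rose by 0.28.

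Host genes of small nucleolar RNAs formed a group that was picked after their values were seen. Of 26 such genes 22 passed the filter, 13 fell and none rose, with a median of -0.47. SNHG1 was at 78.3, 95.3 and 55 CPM with prexasertib and at 31, 33.9 and 22.9 CPM with both drugs. The groups were apart and SNHG1 fell by 1.37 ± 0.094 (adjusted p = 2.8e-14, edgeR). SNHG4 fell by 1.78, SNHG3 by 1.52, SNHG15 by 1.37 and SNHG12 by 1.28, of which SNHG4, SNHG3 and SNHG12 overlap protein-coding genes, so their counts are uncertain. GAS5 fell by 0.66. Small nucleolar RNAs carry no poly(A) tail and were seen at low counts. Of these, 13 of 31 tested fell and none rose, SNORD104 by 1.52 (5.22 to 1.81 CPM).

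Splicing factors of the SR and hnRNP families fell in 28 of 31 cases, with a median of -0.45, and 25 fell with library size alone. Among the genes named next, SRSF2 overlaps MFSD11 and SRSF9 overlaps GATC, so their counts are uncertain. SRSF2 was at 383, 384 and 358 CPM with prexasertib and at 188.4, 186 and 155 CPM with both drugs. The groups were far apart and SRSF2 fell by 1.09 ± 0.052 (adjusted p = 2e-22, edgeR). SRSF1 fell by 0.86 and HNRNPDL by 1.29. SRSF9 rose by 0.15 (adjusted p = 0.037, edgeR), the 1 member to do so, with overlapping groups and a call lost in the fits without replicate 1 or 2 of either group compared.

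All 12 heat-shock genes fell, with a median of -0.55 (11 fell with library size alone and 7 without the replicate term). HSPA8, the constitutive HSP70, was at 2988, 2974 and 2227 CPM with prexasertib and at 1653, 1770 and 1486 CPM with both drugs. The groups did not overlap and HSPA8 fell by 0.73 ± 0.048 (adjusted p = 1.3e-17, edgeR), while HSP90AB1 fell by 0.63. Members of these families resemble each other closely, so reads may be split between them. Among ATF4 targets and tRNA synthetases 19 of 31 fell and none rose, with a median of -0.29 (15 fell and 1 rose with library size alone). ATF4, the factor itself, went from 327 ± 2.95 to 212 ± 17 CPM, a fall of 0.63, and DDIT4, an inhibitor of mTORC1, fell by 0.62. The unfolded protein response list had 8 lower and none higher of 15 (5 and 2 with library size alone), among them XBP1, which fell by 1.13 (64.2 to 29.4 CPM), and the chaperone HSP90B1, which fell by 0.49.

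**Figure D4:**
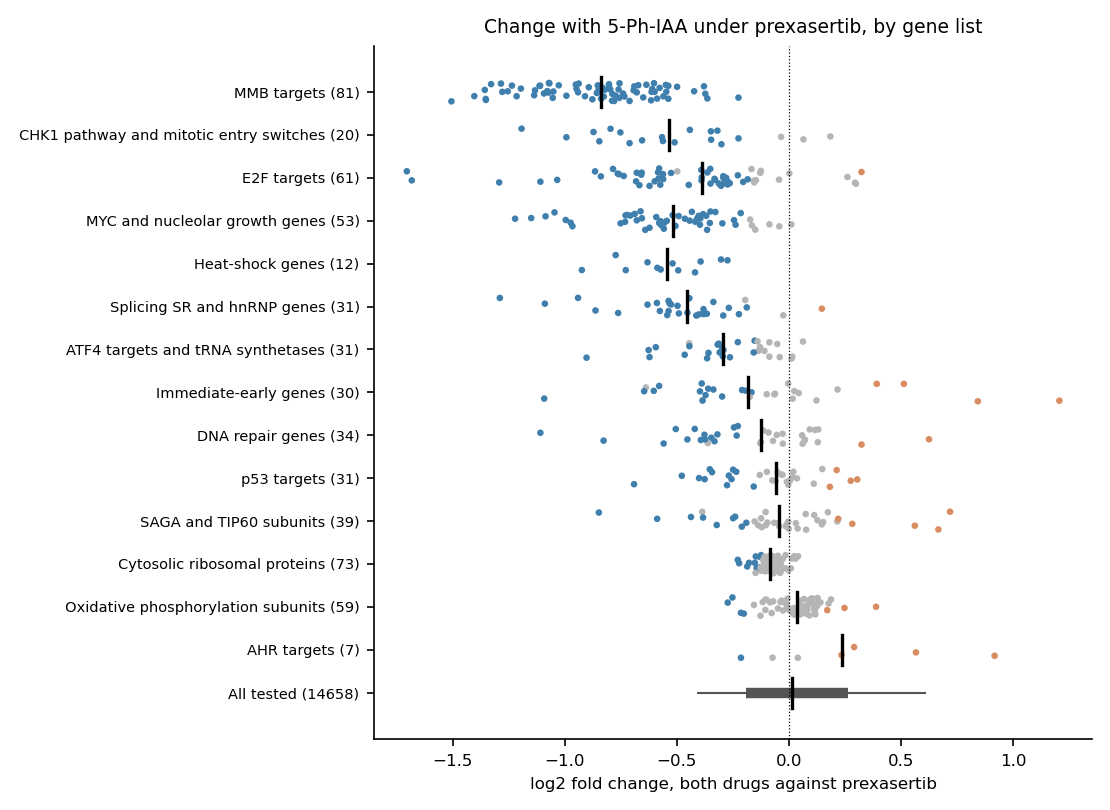
Each point is 1 gene of the list named on the y axis (tested members in brackets), at its log2 fold change between both drugs and prexasertib on the x axis. Blue members fell, orange members rose, grey ones did not pass the test, black lines are medians, and the lowest line gives all tested genes with a bar from the percentile 25 to 75 and a thin line from the percentile 10 to 90. MMB targets have the lowest median of the lists drawn (-0.84), and oxidative phosphorylation genes (median 0.03) sit at 0.

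Genes for the complexes that TRRAP serves moved in both directions. Of 39 subunits of SAGA and TIP60, 9 fell and 5 rose, TRRAP among the latter, with a median of -0.04. Over all tested genes 19.9% fell and 17.2% rose, so these counts are not read as particular to the complexes. With library size alone 5 fell and 13 rose, and the median was 0.10. MORF4L2, a subunit of TIP60, was at 513, 499 and 520 CPM with prexasertib and at 264, 285 and 303 CPM with both drugs. The groups were apart and MORF4L2 fell by 0.85 ± 0.053 (adjusted p = 2.4e-18, edgeR). The bromodomain subunit BRD8 fell by 0.59, DMAP1 rose by 0.56 (29.8 to 43.8 CPM), and SUPT7L of SAGA rose by 0.28. The acetyltransferase gene KAT5 of TIP60 had a change of 0.11 (adjusted p = 0.30, edgeR). Of 8 genes for the TTT chaperone and the PIKK kinases it matures, 3 fell and 3 rose: SMG1, the kinase of nonsense-mediated decay, fell by 0.33 and TTI2, a subunit of TTT, rose by 0.43, although TTI2 overlaps MAK16.

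The genes with the largest rises were weakly expressed. PCK1, the cytosolic phosphoenolpyruvate carboxykinase of gluconeogenesis, was at 1.2, 3.27 and 1.83 CPM with prexasertib and at 13.2, 16 and 7.12 CPM with both drugs. The groups were apart, and PCK1 rose by 2.52 ± 0.24 (adjusted p = 1.2e-10, edgeR). STON1, an endocytic adaptor, went from 1.01 ± 0.417 to 5.1 ± 0.847 CPM (2.32), and the chemokine receptor CCR4 from 1.04 ± 0.697 to 4.36 ± 1.92 CPM (2.02). The muscle ubiquitin ligase TRIM55 rose by 1.86, the corneal sulphotransferase CHST6 by 1.83, the F-box gene FBXW10 by 1.79 (10.4 to 35.3 CPM) and the ETS factor ETV7 by 1.73. CCDC13-AS2 rose by 1.72, but it is antisense to CCDC13 and the strand setting of the counts is not given. Of 873 long non-coding RNA genes 140 rose (16%) and 59 fell (6.76%). Of 13317 protein-coding genes 2340 rose (17.6%) and 2810 fell (21.1%). Over all tested genes 17.2% rose and 19.9% fell, so long non-coding RNA genes did not rise more often. Their median level was 0.93 log2 CPM, against 4.88 for protein-coding genes. With library size alone the counts were 209 higher and 36 lower for long non-coding RNA genes, and 4530 higher and 1527 lower for protein-coding genes, so the balance of the latter turned round.

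The largest falls were in cell cycle genes and small nucleolar RNA hosts. MXD3, a MAX dimerisation partner expressed in S phase, was at 34.4, 42.1 and 55.5 CPM with prexasertib and at 13.2, 11.9 and 9.87 CPM with both drugs. The groups did not meet and MXD3 fell by 1.90 ± 0.13 (adjusted p = 1.1e-11, edgeR), with PRELID1 overlapping its locus. PIMREG, a mitotic regulator that overlaps PITPNM3, fell by 1.85 (176 to 48.6 CPM). SAPCD2, a regulator of spindle orientation, fell by 1.56 (143 to 48.6 CPM).

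p53 targets, which include the brakes and death genes induced by DNA damage, were divided: 12 of 31 fell and 4 rose, with a median of -0.06. With library size alone 5 fell and 10 rose, and the median was 0.08. APAF1, the core of the apoptosome, fell by 0.69 (63.1 to 39.1 CPM) and the antiproliferative gene BTG2 by 0.48. The stress cytokine GDF15 rose by 0.21. CDKN1A, the CDK inhibitor p21, was at 1602, 1526 and 1389 CPM with prexasertib and at 1787, 1730 and 1609 CPM with both drugs. The groups were apart by a narrow margin, and CDKN1A rose by 0.18 ± 0.045 (adjusted p = 0.0011, edgeR), a call lost without the replicate term. Among CDK inhibitors and G1 cyclins as a list, 5 of 9 fell, CDKN1B (p27) by 0.81, and 2 rose.

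Immediate-early genes, which respond to growth factor and stress signals within minutes, had 14 lower and 4 higher of 30 tested (7 and 9 with library size alone). KLF10 fell by 0.58 and FOSL2 by 0.40. JUN fell by 0.60 (adjusted p = 0.00017, edgeR), a call lost without the replicate term. CCN2, a matricellular gene that YAP activates, went from 35.6 ± 5.3 to 63.8 ± 4.7 CPM, a rise of 0.84. Replicate 3 stood apart for several of these genes: FOSB was at 30.1, 31.6 and 5.4 CPM with prexasertib and at 13.6, 13.3 and 3.49 CPM with both drugs, and EGR1 at 47.5, 47.9 and 20.5 CPM and at 32.1, 31.3 and 22.9 CPM. Both groups overlapped for both genes. FOSB fell by 1.09 (adjusted p = 0.00022, edgeR), and EGR1 by 0.37 (adjusted p = 0.039, edgeR), a call lost with library size alone, with DESeq2 and without either replicate 1 or 2 of the groups compared.

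The remaining lists moved little or in both directions, and the counts of several reverse with the scaling. AHR targets had 4 higher and 1 lower of 7 (median 0.24, and 0.37 with library size alone). CYP1A1, a xenobiotic-metabolising enzyme, rose by 0.92 (5.5 ± 1.75 to 10.3 ± 2.39 CPM) and ALDH3A1 by 0.24. The member that fell was CYP1B1, by 0.21 (96.2 ± 23.7 to 83.1 ± 22.5 CPM), with overlapping groups. Its call was lost in 4 of the alternative fits, among them library size alone. NF-kB and interferon genes had 8 lower and 2 higher of 27, IRF7 rising by 1.02. That list had 2 lower and 5 higher with library size alone, and 1 lower and 1 higher without the replicate term. NRF2 targets had 8 lower and none higher of 22 (4 and 5 with library size alone), with UGDH, an enzyme of glucuronide supply, falling by 0.40. Sterol genes had 3 lower and 5 higher of 23 (2 and 8 with library size alone), with SQLE, the squalene epoxidase, falling by 0.46. Glycolysis and hypoxia genes had 12 lower and 1 higher of 22 (6 and 5 with library size alone), PFKFB3 falling by 0.39.

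Housekeeping lists were the most sensitive to scaling. Oxidative phosphorylation subunits had 4 lower and 3 higher of 59, but 36 higher and none lower with library size alone. Proteasome subunits had 4 lower of 31, and 7 higher and none lower with library size alone. Lysosome and autophagy genes had 3 lower and 6 higher of 31 (1 and 15 with library size alone), and the proton pump subunit ATP6V0D1 rose by 0.30. YAP and TGF-beta targets had 8 lower and 4 higher of 22, a balance that turned to 3 lower and 9 higher with library size alone. BCL2 family genes had 5 lower and none higher of 15 (2 and 4 with library size alone), including the antiapoptotic BCL2L2, which fell by 0.48. Epithelial markers had 6 lower and none higher of 15 (2 lower with library size alone), and the ETS factor ELF3 fell by 0.44 with overlapping groups. Of 6 tested markers of other cell types, 1 rose and 1 fell.

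5-Ph-IAA without prexasertib gave a comparison that shares no library with this one. There 2780 genes rose (19%) and 3465 fell (23.6%). Over the 10331 genes with a mean of at least 3 log2 CPM, the change under prexasertib and the change without it had a Pearson r of 0.86, a description in which same-numbered libraries share a replicate. Of the calls under prexasertib 74.3% were also called without it, and of the calls without prexasertib 64.7% were called under it. Of 4043 genes called in both, 4025 had the same sign and 18 had opposite signs. MMB targets had 79 of 81 lower without prexasertib (median -0.88), E2F targets 48 of 61 (median -0.45), and MYC and nucleolar genes 49 of 53 (median -0.56).

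The difference between these 2 effects was tested for every gene as the interaction of both treatments. At an adjusted p under 0.05, 55 genes had a higher change under prexasertib (0.375%) and 41 a lower one (0.28%). Of the 55, 49 had fallen without prexasertib, and 28 of the 41 fell under prexasertib. None of the 96 was called without the replicate term, and leaving out prexasertib replicate 1 left 18 and 10, so the counts rest on the pairing and on single libraries. In every fit that left libraries out, 20 of the 96 were called again, and the genes given next in full are among those 20, with the exceptions of CENPE, BBC3, FOSB, MYC, NR4A1 and KLF10.

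Several mitotic genes fell less under prexasertib. UBE2C, the ubiquitin-conjugating enzyme of the anaphase-promoting complex, fell by 0.64 ± 0.053 under prexasertib (250 ± 10.2 to 161 ± 12.3 CPM) and by 1.33 ± 0.055 without it (213 to 84.6 CPM). The difference was 0.69 ± 0.077 (adjusted p = 8.6e-08, edgeR). CDK1, the kinase of mitosis, fell by 0.23 under prexasertib (-0.09 with library size alone, not called) and by 0.88 without it, a difference of 0.65 (adjusted p = 2.4e-05, edgeR). The centromeric histone CENPA, PLK1, CCNB1 and KIF20A had differences of 0.54, 0.43, 0.42 and 0.40. In all, 10 of the 81 MMB targets had a higher change under prexasertib and 1, the kinetochore motor CENPE, a lower one (-0.49). The mean level of the MMB list was 7.14 log2 CPM in DMSO, 6.27 with 5-Ph-IAA, 7.65 with prexasertib and 6.79 with both drugs, all on the TMM scale.

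Several p53 targets also had a higher change under prexasertib. PHLDA3, an inhibitor of AKT, was at 259, 253 and 290.5 CPM with prexasertib and at 269, 264 and 267.5 CPM with both drugs. The groups overlapped and its change under prexasertib was -0.00 ± 0.053 (adjusted p = 0.98, edgeR), but 0.14 and called higher with library size alone. Without prexasertib it fell by 0.56 (240.5 to 164 CPM), a difference of 0.55 ± 0.075 (adjusted p = 1.6e-05, edgeR). The nuclease AEN had -0.01 under prexasertib (0.13 and called higher with library size alone) and fell by 0.47 without it, a difference of 0.47 (adjusted p = 0.00019, edgeR). CDKN1A rose by 0.18 under prexasertib and fell by 0.16 without it, a difference of 0.34 (adjusted p = 0.0022, edgeR). BBC3, the death gene PUMA, had a difference of 0.46 that was not called without prexasertib replicate 1 or 2. As a list, 5 of 31 p53 targets had a higher change under prexasertib and none a lower one, and 25 of 31 fell without prexasertib.

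WNT6, a secreted ligand, had the largest difference upward among genes of at least 1 log2 CPM. It was at 2.79, 2.82 and 2.84 CPM with prexasertib and at 7.83, 7.28 and 7.2 CPM with both drugs. The groups were apart and WNT6 rose by 1.40 ± 0.20 under prexasertib (adjusted p = 1.5e-07, edgeR), against -0.15 without it, a difference of 1.55 ± 0.26 (adjusted p = 0.00072, edgeR) that DESeq2 did not call.

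Other genes fell more, or rose less, under prexasertib. KNL1, a kinetochore scaffold, fell by 0.82 under prexasertib (63 ± 6.6 to 35.5 ± 1.7 CPM) and by 0.20 without it, a difference of -0.62 ± 0.12 (adjusted p = 0.0022, edgeR). ODF2, a centriole appendage protein, and DBF4B, a partner of the replication kinase CDC7, had differences of -0.43 and -0.57. EGR1 fell by 0.37 under prexasertib and rose by 1.30 without it (2.78 to 6.75 CPM), a difference of -1.67 ± 0.27 (adjusted p = 0.0034, edgeR) that DESeq2 did not call. The histone demethylase KDM6B fell by 0.36 under prexasertib and rose by 0.29 without it. Of 30 immediate-early genes tested, 5 had a lower change under prexasertib, FOSB, EGR1, MYC, NR4A1 and KLF10, and 1, IER5, a higher one.

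**Figure D5:**
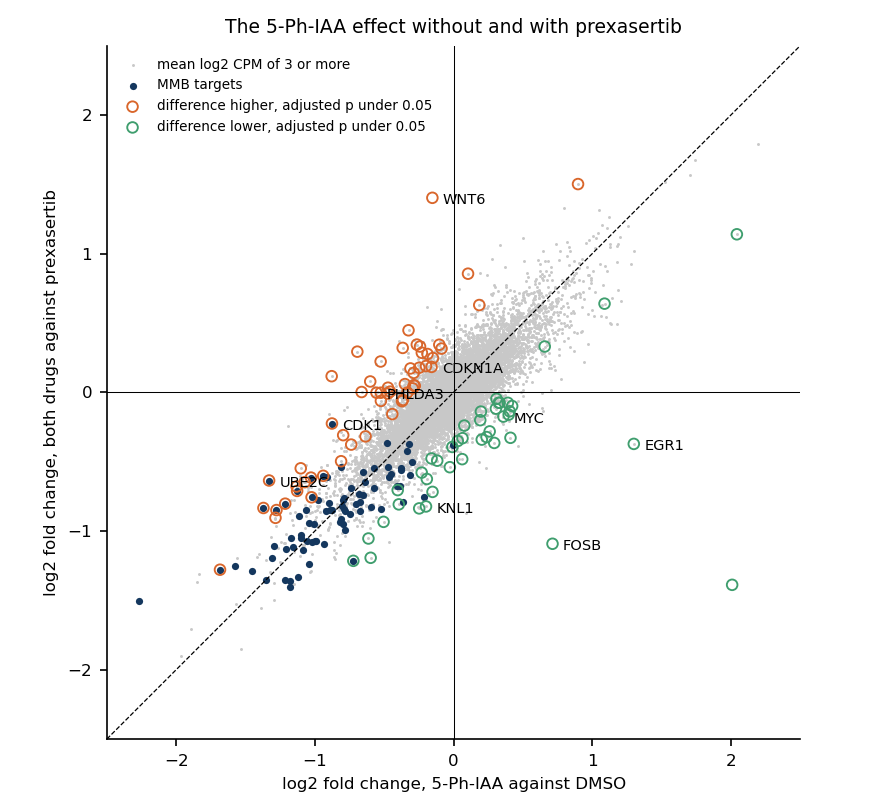
Each grey point is 1 gene with a mean of 3 log2 CPM or more, at its log2 fold change with 5-Ph-IAA against DMSO on the x axis and with both drugs against prexasertib on the y axis, with the dashed line where both are equal. MMB targets are dark, and rings mark the 55 genes whose change was higher under prexasertib (orange) and the 41 whose change was lower (green), such as UBE2C (-0.64 and -1.33) above the line and EGR1 (-0.37 and 1.30) below it.

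Prexasertib against DMSO uses the same prexasertib libraries, so its values are only set beside those above. KIF20A had 215 CPM in DMSO, 486 with prexasertib and 200.2 with both drugs. CCNB1 had 526, 856 and 524 CPM in the same order, and PLK1 had 337, 481 and 266 CPM. RRM2 had 462, 366.5 and 113 CPM. CDKN1A had 1126, 1506 and 1709 CPM. For KIF20A, CCNB1 and PLK1 the mean with both drugs was thus below or near that in DMSO, for RRM2 it was below both, and for CDKN1A above both.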

How the data were processed

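RNA of 12 libraries in 4 groups of 3 was measured by poly(A)-selected, directional sequencing, per the labels' protocols. Whole-number counts for each gene were deposited, without normalization by the authors. featureCounts 2.0.8, limma 3.58.1 and hg38 are named in the submitters' processing notes. For the aligner, annotation and strand option, nothing is given in the sources used here. Total counts ran from 10830048 to 17789482 per library, and 650 of 28395 gene IDs (0.0324% of counts) had no match in the RefSeq table of GRCh38.p14. The 13 CUT&RUN samples were not analysed here.

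Genes were kept by filterByExpr (minimum count 10, minimum total 15). A robust quasi-likelihood model in edgeR 4.0.16 (R 4.3.3), with TMM scaling and terms for group and replicate number, was fitted to all 12 libraries. Benjamini-Hochberg adjustment covered all 14658 genes tested, and calls needed an adjusted p below 0.05. The standard error is the log2 fold change divided by the square root of F. Same-numbered libraries deviated together from their group means, with correlations between 0.33 and 0.779 in every pair of groups over 10331 genes. Replicate 3 stood apart, with -0.54 and -0.567 between prexasertib 3 and both drugs 1 and 2. Numbers 1 and 2 were not told apart in the groups compared. Prexasertib 1 had 0.361 with both drugs 1 and 0.438 with both drugs 2. Prexasertib 2 had 0.462 with both drugs 1 and 0.429 with both drugs 2. DMSO and prexasertib did correlate more by the same number (0.507 and 0.556, against 0.325 and 0.283). The numbers were taken to pair the libraries. The model was tested on simulated data. Alternatives were no replicate block, the 6 libraries alone, DESeq2 1.42.0, limma-voom, 2 other scalings, 2 other filters and each library left out. They were also applied to 5-Ph-IAA without prexasertib, a choice made after seeing the data.

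The members and gene lists were chosen with earlier results of these data known. Genes were named by a rule: 8 fixed genes, the 8 largest called changes in each direction with at least 1 log2 CPM and separate groups, up to 3 genes per list with 3 or more calls, and the 4 largest differences between both effects in each direction, with further genes added after their values were seen. Motifs were searched in RefSeq promoter sequences. Some genes that the rule names are not reported here.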

Additional observations from a re-analysis of the deposited data

Results flagged for a closer look

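For 14 genes among those named by rule, the effect of 5-Ph-IAA under prexasertib differed from that without it by the interaction term of the edgeR fit (adjusted p under 0.05). The difference was 0.42 for CCNB1 and 0.43 for PLK1, which fell in both arms and less under prexasertib, as did KIF20A with 0.40. CDKN1A had a difference of 0.34. KLF10 fell in both arms and more under prexasertib, with a difference of -0.35. MYC had a difference of -0.53, with a rise of 0.36 without prexasertib, and the call was lost in 5 fits that left 1 library out (prexasertib, both drugs or 5-Ph-IAA replicate 1, prexasertib or both drugs replicate 2).

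WNT6 had a difference of 1.55. CTU1 and PSD4 each had 0.99, from falls of 0.88 and 0.69 without prexasertib and values of 0.12 and 0.29 under it that did not pass the test. ANTKMT had 0.77, with a rise of 0.45 under prexasertib and a fall of 0.33 without it. FOSB had -1.81, EGR1 -1.67, MYPN -0.90 and DLC1 -0.74. MYPN rose in both arms, by 1.14 under prexasertib and by 2.04 without it.

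FOSB and EGR1 had replicate 3 libraries apart from the other 2 under prexasertib, and the calls for CTU1, PSD4, FOSB, DLC1 and KLF10 were each lost in 6 or more of the fits that left a library out. No call of these 14 held without the replicate term, and WNT6, CTU1, PSD4, FOSB, EGR1, MYPN and DLC1 were not called with DESeq2.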

How the results depend on the processing

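The 5-Ph-IAA counts under prexasertib kept within 1.5 times (2528 higher, 2913 lower) with DESeq2, limma-voom, DESeq2's size factors, the 6 libraries alone, both filters and each library left out. With no replicate block they were 1150 and 1524, and with library size as the only scaling 4814 and 1591. Without prexasertib the counts were 1414 and 1787 with no replicate block, and 5078 and 1760 with library size alone. The pairing of libraries therefore bears on the count, and the biological coefficient of variation was 5.72% with the block and 12.8% without it.

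The difference between both effects (55 higher, 41 lower) gave 0 and 0 calls with no replicate block in edgeR, where 519 genes had an unadjusted p under 0.05, against 1679 with the block. It gave 112 and 65 with no filter, and between 18 and 126 higher and between 10 and 125 lower with libraries left out. Without replicate 3 of any group 82 of the 96 were called again with the same sign.

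Scaling by library size alone changed the sign of list medians near 0: p53 targets 0.08, SAGA and TIP60 0.10, unfolded protein response 0.01, NRF2 targets 0.05, sterol genes 0.12, DNA repair 0.01, ribosomal proteins 0.06, proteasome 0.08, lysosome 0.13, glycolysis 0.01, YAP and TGF-beta targets 0.08, BCL2 family 0.09 and other cell types 0.01. With libraries left out, medians also changed sign for SAGA and TIP60 (range -0.07 to 0.01), TTT and PIKK genes (-0.02 to 0.04, and -0.01 without replicate 3), sterol genes (-0.04 to 0.04, and 0.03 without both drugs replicate 3), mitochondrial ribosomal proteins (-0.03 to 0.02) and lysosome genes (-0.03 to 0.05, and 0.01 to 0.04 in 3 of these fits), and CTU1 ranged from -0.12 (without prexasertib replicate 2) to 0.28. No direction is read from any of these medians.

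At this depth genes at or below 0 log2 CPM were called least often in either direction together.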
